A study of Mus musculus with 14 samples.

Results

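Translating RNA of hippocampal PV neurons was compared between mice that became susceptible and mice that stayed resilient after chronic social defeat stress (CSDS). The libraries were chosen by their labels alone: 3 susceptible libraries (numbered 2, 4 and 10) and 4 resilient libraries (3, 5, 7 and 8), 7 of the 14 in the series. The other 7 are translating ribosome affinity purification (TRAP) libraries of non-defeated mice (1, 6, 9 and 11) and 3 input libraries (12 to 14) of total hippocampal RNA. The input libraries are labelled as input of the controls, so neither susceptible nor resilient mice have an input library here. All mice were adult C57BL/6 males that carried a Cre-dependent EGFP-L10a allele and PV-Cre, so the controls have the same transgenes as the defeated mice. In both groups compared here the mice were defeated by CD1 aggressors. They were separated only by a later social interaction test, in which susceptible mice spent less time near a caged aggressor than near an empty cage. PV-Cre tags ribosomes in every cell in which the Pvalb gene drives Cre, wherever that cell lies in the dissected tissue. How many mice gave each library is not given in the sources used here, so p-values measure the spread between these samples.

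PV neurons are fast-spiking GABAergic interneurons that inhibit the soma and proximal axon of principal cells and pace hippocampal rhythms. Their rapid firing rests on Kv3 potassium channels, dense mitochondria and fast transmitter release, and their somata are wrapped in perineuronal nets. In TRAP, the tagged L10a protein of the large ribosomal subunit is pulled down with the mRNA on the ribosome, so a TRAP level reflects both how much mRNA a cell holds and how much of it is bound to ribosomes. In such bulk samples, fewer cells of a type and less RNA per cell cannot be told apart.

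Between 73348628 and 87316567 reads were counted on genes in each of the 7 libraries. Levels are given as CPM, read counts scaled to the size of the library, after TMM normalization, which sets the libraries to a common reference. The PV label held in these libraries: the summed level of 19 PV interneuron markers was 7031 to 11085 CPM in susceptible and 9184 to 11488 CPM in resilient libraries, against 1819.7 to 2079 CPM in input, and Pvalb itself was at 1443, 1600.3 and 1241 CPM in susceptible 2, 4 and 10 and at 1332, 1208, 1304 and 1250.4 CPM in resilient 3, 5, 7 and 8. A pair of libraries stood apart. Susceptible 10 had the lowest PV marker sum, and resilient 7 had a thalamic marker sum of 1157 CPM where the other 3 resilient libraries had at most 238 CPM. The non-defeated libraries were also compared by their numbers, split after 6, a split chosen after seeing the data. Among 20924 genes tested outside oxidative phosphorylation and the cytosolic ribosome, non-defeated 1 and 6 both lay above non-defeated 9 and 11 for 27.2% and both below for 29.9%. Other pairings of these libraries were not counted, so the shares alone do not tie a pattern to the numbers. Of the 3 susceptible libraries 2 have numbers up to 6, as do 2 of the 4 resilient ones. The labels do not say what the numbers stand for.

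Across 21298 genes, 403 differed between susceptible and resilient libraries at an adjusted p under 0.05 (edgeR's quasi-likelihood test, Benjamini-Hochberg), 1.89% of those tested. Without oxidative phosphorylation and ribosomal protein genes, 371 remained, of which 185 were higher and 186 lower in susceptible mice (with those lists included, 1.02% and 0.873% of genes tested). The changes were small: the median absolute log2 fold change of the called genes was 0.55, and 39 of them passed 2-fold. At an unadjusted p under 0.05 the comparison held 10.8% of genes on the higher and 10.1% on the lower side. These shares are the background for the lists below, but they rose with the level of the genes. Outside oxidative phosphorylation and the ribosome, 4.01% were higher and 4.63% lower in the decile of lowest mean CPM. In the decile of highest mean CPM 14.9% were higher and 19.2% lower, so lists of abundant genes have a larger background. Every susceptible library lay above every resilient library for 7.71% of genes and below for 7.44%. Of the 403 called genes, 399 did not overlap between the groups. For a called gene, here and below, a lack of overlap therefore adds little to the call.

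The number of calls depended on the libraries in the model. The fit of the 11 TRAP libraries alone called 1 gene and that of the 7 libraries alone 0 (edgeR, with 3348 genes at an unadjusted p under 0.05), while DESeq2 on the same 7 libraries called 991. Input libraries varied less (median SD of log2 CPM 0.119) than susceptible (0.255) and resilient ones (0.224), and they share the estimate of spread in the fit of all 14. Without susceptible 2, 4 or 10 the count was 7, 73 or 1058. Without resilient 3, 5, 7 or 8 it was 26, 196, 12 or 6, and without non-defeated 1, 6 or 11 it was 705, 83 or 250. With both susceptible 10 and resilient 7 left out it was 5. The 45 called genes named here by rule had an unadjusted p under 0.05 with each TRAP library left out in turn, but they were called again in only 2 to 11 of those 11 fits.

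The 6 protein-coding genes with the smallest p-values on the higher side encode RNA-binding proteins, a potassium channel, a ciliary protein, a corepressor and a calcium-dependent phosphatase. Hnrnpa3 (ENSMUSG00000059005, chromosome 2 of mm10, 75659261 to 75669407, plus strand), a nuclear ribonucleoprotein of splicing and mRNA transport, was at 103, 102 and 88.7 CPM in susceptible 2, 4 and 10 and at 61.0, 65.0, 61.5 and 68.7 CPM in resilient 3, 5, 7 and 8. Its log2 fold change was 0.61 ± 0.08 (SE), adjusted p = 0.00903. The groups did not overlap, and the non-defeated libraries, at 68.4 to 77.4 CPM, lay between them except for the lowest, which fell below the highest resilient library. Pum2, a Pumilio protein that binds the 3' end of mRNAs and represses their translation, had 31.0, 31.7 and 27.1 CPM in susceptible and 15.4, 18.5, 14.7 and 17.8 CPM in resilient libraries, a log2 fold change of 0.85 ± 0.14 (SE), adjusted p = 0.0222. Non-defeated 1 and 6, at 27.3 and 23.3 CPM, were nearer to the susceptible libraries than non-defeated 9 and 11, at 17.6 and 20.7 CPM. Kcnq3, the Kv7.3 subunit of the M-current that damps repetitive firing, was at 22.4, 16.3 and 19.1 CPM in susceptible and 10.1, 10.9, 13.1 and 11.5 CPM in resilient libraries and changed by 0.76 ± 0.12 (SE), adjusted p = 0.0225. It is a gene of chromosome 15 (65986387 to 66286642, minus strand), and in non-defeated mice it was lower in TRAP than in input (log2 -0.90). Ppp3cb, a catalytic subunit of calcineurin, was at 168, 177 and 182 CPM against 128, 144, 132 and 134 CPM, with 0.39 ± 0.06 (SE), adjusted p = 0.0227. Its 4 non-defeated libraries were tightly grouped at 148 to 151 CPM, between the groups. Cep290, a protein of the ciliary transition zone, differed by 0.61 ± 0.10 (SE), adjusted p = 0.0225, with 24.2, 24.1 and 24.3 CPM in susceptible and 14.2 to 17.8 CPM in resilient libraries. Mier1, a transcriptional corepressor that recruits histone deacetylases, was at 16.3, 13.5 and 14.1 CPM in susceptible and 7.59 to 9.48 CPM in resilient libraries (0.74 ± 0.12 (SE), adjusted p = 0.0227). Hnrnpa3 shares exonic sequence with Gm24574 on the same strand. Cep290 and Mier1 share exonic sequence with a gene on the opposite strand, and the strand setting of the counting is not given in the sources used here. Some genes named below, such as Hdac5, Grin2b and Tef, also overlap other genes, which is not stated for each.

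Among the 6 on the lower side were a Wnt signal transducer, a nuclear export receptor and a nicotinic receptor subunit. Dvl3, one of the Dishevelled proteins that relay Wnt signals from Frizzled receptors, had 31.0, 30.9 and 29.6 CPM in susceptible 2, 4 and 10 and 49.9, 46.0, 49.9 and 55.9 CPM in resilient 3, 5, 7 and 8, a log2 fold change of -0.73 ± 0.09 (SE), adjusted p = 0.00903. It lies on the plus strand of chromosome 16 from 20516982 to 20534010. Hnrnpa3 and Dvl3 were the members of this group of 12 that stayed called with each TRAP library left out in turn. Chrna7, the α7 nicotinic acetylcholine receptor subunit, was low in all libraries, at 1.65, 1.81 and 1.66 CPM in susceptible and 2.79, 3.44, 3.05 and 3.88 CPM in resilient ones, and differed by -0.95 ± 0.15 (SE), adjusted p = 0.0227. Its non-defeated libraries, at 2.46 to 2.65 CPM, lay between both groups, and in them Chrna7 was depleted from TRAP relative to input (log2 -1.75). Xpo6, the exportin that carries actin out of the nucleus, was at 43.2, 48.3 and 46.6 CPM against 70.6, 68.3, 63.7 and 79.2 CPM, -0.61 ± 0.09 (SE), adjusted p = 0.0165. For Xpo6 the non-defeated libraries (63.3 to 76.0 CPM) lay within or just beside the resilient range, and the susceptible libraries were below all 8 others. Fam53c was at 42.4 to 49.3 CPM in susceptible and 63.2 to 66.8 CPM in resilient libraries (-0.51 ± 0.08 (SE), adjusted p = 0.0217). A pair of predicted protein-coding genes completed the 6: B930094E09Rik at 8.04 to 10.1 CPM in susceptible against 14.2 to 19.0 CPM in resilient libraries (-0.86 ± 0.12 (SE), adjusted p = 0.0106), and Gm20662 at 20.4 to 22.7 CPM in susceptible against 35.4 to 46.5 CPM in resilient libraries (-0.94 ± 0.14 (SE), adjusted p = 0.0156). Gm20662 shares exons with Cdhr4 and Ip6k1 on the same strand, and B930094E09Rik overlaps Slc25a46 on the other, so reads of these genes cannot be told apart with certainty. That the groups do not overlap for these 12 genes follows from the rule that chose them.

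**Figure D1:**
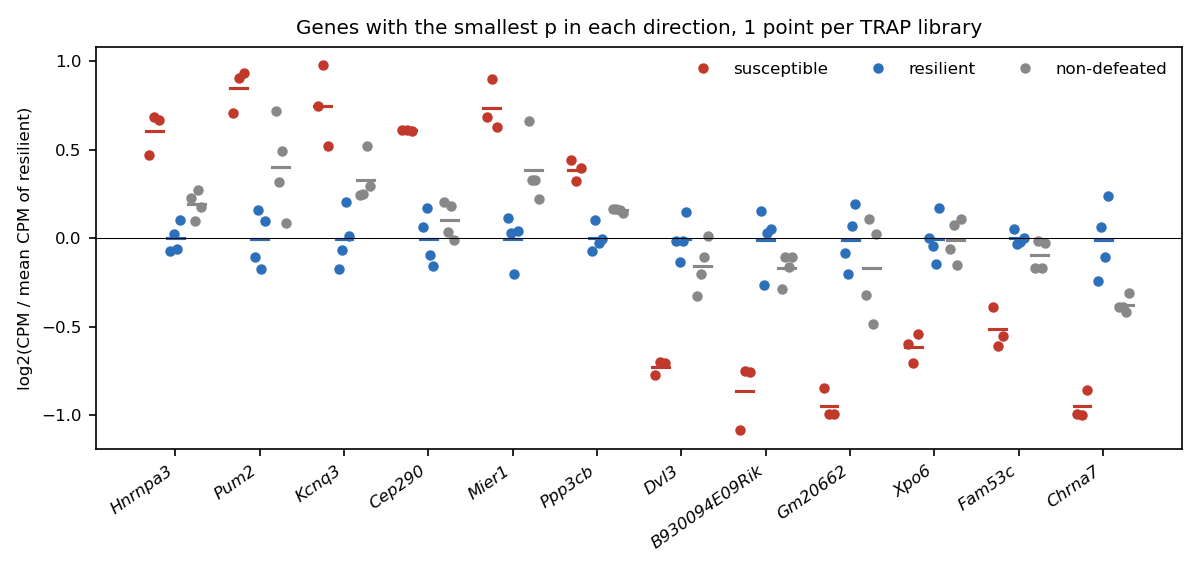
Levels of the 12 protein-coding genes with the smallest p in each direction, as log2 of CPM over the mean of the resilient libraries, with 1 point per TRAP library and a bar at the mean of each group. Susceptible points lie above all resilient points for the 6 genes on the left, such as Hnrnpa3 (0.61), and below them for the 6 on the right, such as Chrna7 (-0.95).

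Among protein-coding genes with a mean of at least 1 CPM, the largest called increases were the 4 adult globin genes. Hba-a1 was at 277, 295 and 344 CPM in susceptible 2, 4 and 10 and at 82.6, 185, 42.7 and 50.8 CPM in resilient 3, 5, 7 and 8, so that resilient 5 lay between the groups. Its log2 fold change was 1.76 ± 0.38 (SE), adjusted p = 0.0411. Hbb-bs was at 188, 185 and 299 CPM against 41.1, 122, 23.6 and 31.8 CPM, with 2.04 ± 0.45 (SE), adjusted p = 0.0415. Hba-a2 and Hbb-bt moved with them, at 1.75 (adjusted p = 0.0411) and 2.01 (adjusted p = 0.0431). Each globin pair encodes nearly the same protein and its reads may be split between the copies. Non-defeated libraries held 37.4 to 72.5 CPM of Hba-a1, so that only the susceptible libraries reached the level of input (271 ± 33.8 CPM, SD, n = 3). Globins mark red blood cells, and the part of blood in the other differences was not tested. The 4 largest called decreases among such protein-coding genes were of genes at a few CPM. Slc9a7, a sodium-proton exchanger of the trans-Golgi network, was at 1.33, 2.09 and 2.52 CPM in susceptible and 4.84, 5.13, 5.50 and 5.29 CPM in resilient libraries (-1.39 ± 0.25 (SE), adjusted p = 0.0278). The 4 resilient values lay within a narrow range, and non-defeated 1 and 6 (3.33 and 2.66 CPM) were below 9 and 11 (5.74 and 4.71 CPM). Grb7, an adaptor of receptor tyrosine kinases, had 0.583 to 0.663 CPM in susceptible against 1.12 to 1.94 CPM in resilient libraries (-1.20 ± 0.28 (SE), adjusted p = 0.0459). Hhipl1 followed at 1.68 to 2.22 CPM in susceptible against 3.16 to 5.08 CPM in resilient libraries (-1.13 ± 0.19 (SE), adjusted p = 0.0229), and Wdfy2, an endosomal FYVE-domain protein, at 0.718 to 1.06 CPM in susceptible against 1.51 to 2.21 CPM in resilient libraries (-0.997 ± 0.21 (SE), adjusted p = 0.0389). None of these 4 overlapped between the groups, as held for 399 of the 403 called genes.

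To describe functional classes, 40 lists held 1500 distinct genes in the count table, of which 1463 were tested. In what follows, counts of list members that were higher or lower are at an unadjusted p under 0.05, and called means an adjusted p under 0.05, both in edgeR's test. Over all genes tested the median log2 fold change was 0.00281. The lists with the highest medians were those of small nuclear ribonucleoproteins (0.26), histones (0.20), mitochondrial protein import (0.19) and mitochondrial ribosomal proteins (0.15). The lowest medians were those of circadian clock genes (-0.27), aminoacyl-tRNA synthetases (-0.22) and enzymes of glycolysis and the citrate cycle (-0.19). For 24 of the 40 lists the median kept its sign with each TRAP library left out. The medians of the other lists changed sign in at least 1 of those fits.

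**Figure D2:**
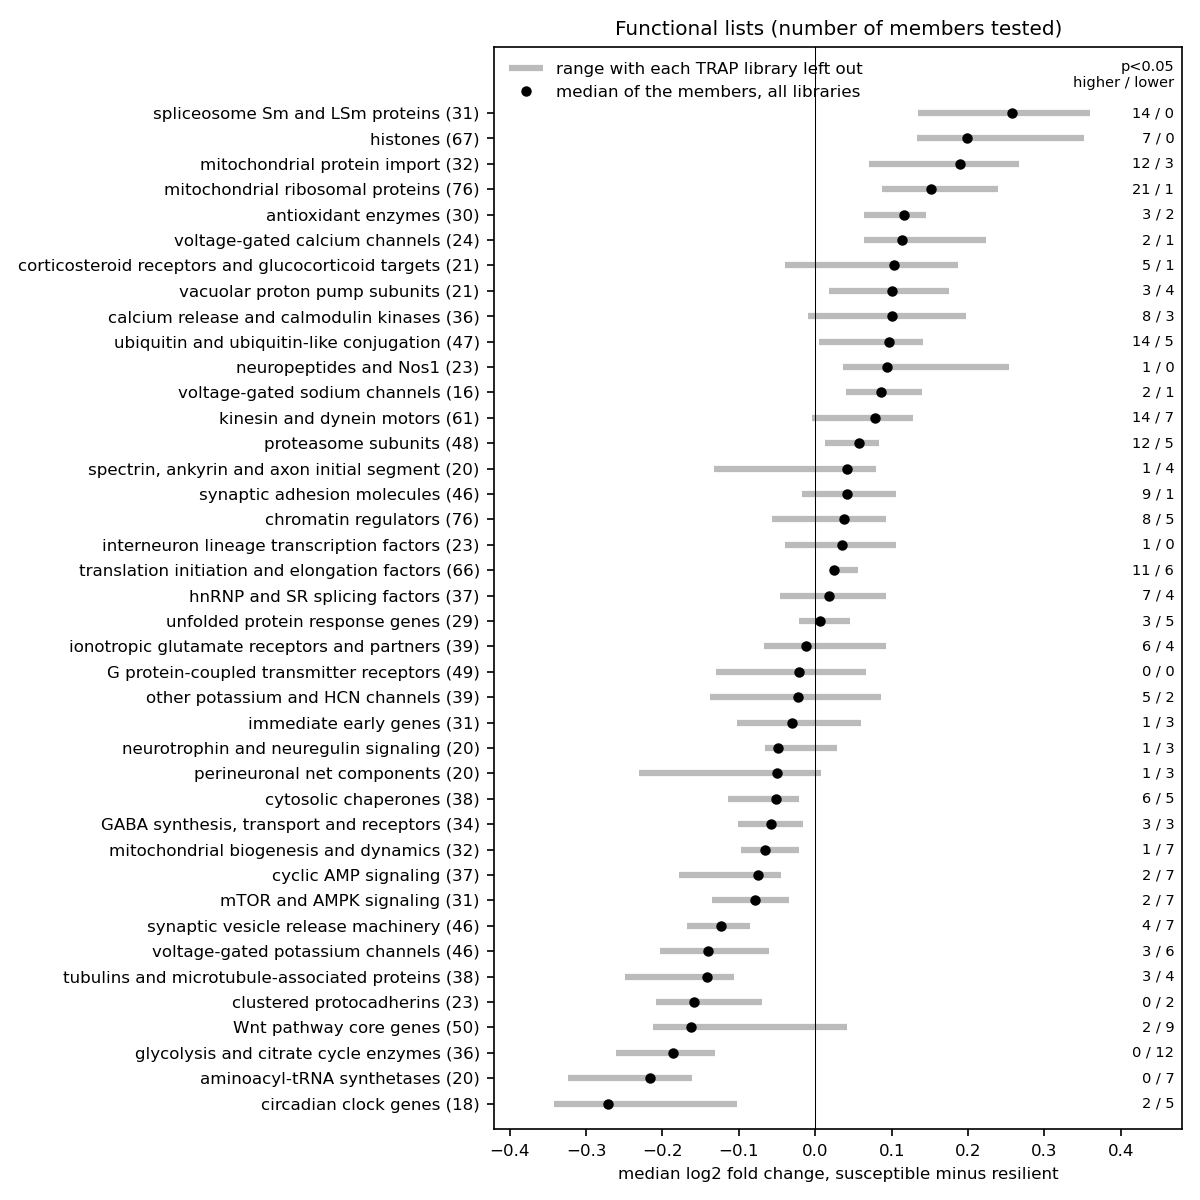
Median log2 fold change, susceptible minus resilient, of the members of 40 functional lists (points), with the range when each TRAP library is left out in turn (grey bars) and, at the right, the number of members at an unadjusted p under 0.05 that were higher or lower. The spliceosome list lies highest (0.26, 14 higher and 0 lower) and the circadian list lowest (-0.27, 2 higher and 5 lower).

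Core spliceosomal proteins were on the higher side in susceptible mice, and most other splicing factors were not. Of 31 Sm and LSm proteins and their partners, the core of the spliceosomal snRNPs, 14 were higher and 0 lower at an unadjusted p under 0.05, against 10.8% and 10.1% of all genes, and 4 were called. The 4 were Snrpb2, Snrpd1, Snrpe and Lsm8, the last 2 named after their values were seen. Snrpb2, which binds the U2 snRNA, was at 34.6 to 36.3 CPM in susceptible against 23.5 to 26.1 CPM in resilient libraries (0.49 ± 0.09 (SE), adjusted p = 0.0267), and Snrpd1, part of the Sm ring, at 109 to 135 CPM in susceptible against 84.2 to 97.4 CPM in resilient libraries (0.39 ± 0.08 (SE), adjusted p = 0.0394). Both were higher in all 3 susceptible than in all 4 resilient libraries. The mean level of the list, relative to the resilient mean, was 0.22, 0.28 and 0.11 in susceptible 2, 4 and 10 and 0.22, 0.15, 0.02 and 0.05 in non-defeated 1, 6, 9 and 11, on the log2 scale. Non-defeated 1 and 6 thus lay within the range of the susceptible libraries. The median difference was 0.30 within numbers 1 to 6 and 0.14 within numbers 7 to 11. Here and below, susceptible 10 is the only susceptible library within numbers 7 to 11. Most hnRNP and SR splicing factors did not follow: the median of 37 was 0.02, with 7 higher and 4 lower. The 3 called were Hnrnpa3, Hnrnpa0 and Hnrnpa1, all of the hnRNP A family, the last named after its value was seen. Hnrnpa0 was at 37.7 to 47.9 CPM in susceptible against 25.3 to 33.5 CPM in resilient libraries (0.61 ± 0.13 (SE), adjusted p = 0.0389). Hnrnpll, a regulator of alternative splicing, had -0.52 (adjusted p = 0.0655).

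Histones held 0 called genes of 67, and chromatin regulators 1 higher and 1 lower of 76, where 1.89% of all genes tested were called. Of 67 histone genes tested, 59 had a positive log2 fold change, 7 were higher and 0 lower at an unadjusted p under 0.05, and none was called by edgeR (0 by DESeq2 on the 7 libraries). Many canonical histone genes are near-identical copies, among which reads can be split. H3f3a, which encodes the replacement histone H3.3, was at 213 to 265 CPM in susceptible against 179.6 to 203 CPM in resilient libraries (0.30, adjusted p = 0.0930). By library the histone list was at 0.35, -0.05 and 0.29 in susceptible and 0.17, -0.06, -0.20 and 0.10 in resilient libraries, relative to the resilient mean on the log2 scale, so susceptible 4 lay among the resilient libraries. Among 76 chromatin regulators, 8 were higher and 5 lower. Hdac5, a class IIa histone deacetylase that shuttles out of the nucleus with neuronal activity, was at 113 to 126 CPM in susceptible against 159 to 175 CPM in resilient libraries (-0.45 ± 0.09 (SE), adjusted p = 0.0346). The groups did not overlap for Hdac5. Kdm6b, an H3K27 demethylase, had 0.72 (adjusted p = 0.0566).

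Nuclear-encoded mitochondrial genes outside oxidative phosphorylation split by function. The mitochondrial ribosome was on the higher side: 64 of 76 mitochondrial ribosomal proteins had a positive log2 fold change, and 21 were higher and 1 lower at an unadjusted p under 0.05. Mrps14 was the 1 called, at 149 to 166 CPM in susceptible against 119.5 to 133 CPM in resilient libraries (0.34 ± 0.07 (SE), adjusted p = 0.0419). Mrps36, now known as a subunit of the 2-oxoglutarate dehydrogenase complex as well, had 0.52 (adjusted p = 0.0586), and Mrpl48 was the 1 member lower, at -0.23 (adjusted p = 0.120). Of 32 genes of mitochondrial protein import, 12 were higher and 3 lower. Tomm7, a small subunit of the outer membrane translocase, was at 184 to 247 CPM in susceptible against 145 to 170.0 CPM in resilient libraries (0.48, adjusted p = 0.0582), Timm8b, an intermembrane space chaperone, had 0.40 (adjusted p = 0.0940), and Timm29 had -0.32 (adjusted p = 0.129). For both lists the difference was uneven between libraries. The mitoribosome list stood at 0.14, 0.29 and -0.02 and the import list at 0.15, 0.34 and -0.03 in susceptible 2, 4 and 10, with resilient 3 at 0.10 and 0.10. Susceptible 10 was therefore at the level of the resilient libraries. The median difference was 0.22 within numbers 1 to 6 and 0.01 within numbers 7 to 11 for the mitoribosome and 0.20 within numbers 1 to 6 and 0.01 within numbers 7 to 11 for import. Genes of mitochondrial biogenesis and dynamics were on the other side, with 1 higher and 7 lower of 32. Mfn2, which fuses outer mitochondrial membranes, was at 213, 243 and 246 CPM in susceptible and 309, 339, 348 and 358 CPM in resilient libraries (-0.53 ± 0.11 (SE), adjusted p = 0.0378). Mief1, which recruits the fission GTPase Drp1, had -0.31 (adjusted p = 0.0671), and Micu3, which regulates the mitochondrial calcium uniporter, had 0.28 (adjusted p = 0.0940). Ppargc1a, the coactivator that drives mitochondrial biogenesis, was at 122 to 153 CPM in susceptible and 134 to 158 CPM in resilient libraries (-0.10 ± 0.09 (SE), adjusted p = 0.542), so no difference was detectable here.

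Enzymes of carbon metabolism and of tRNA charging were on the lower side. Of 36 enzymes of glycolysis and the citrate cycle, 33 had a negative log2 fold change, 12 were lower and 0 higher at an unadjusted p under 0.05, and 1 was called. The called gene was Dlat, the acetyltransferase of the pyruvate dehydrogenase complex, at 178, 202 and 202 CPM in susceptible 2, 4 and 10 and 255, 262, 279 and 265 CPM in resilient 3, 5, 7 and 8 (-0.45 ± 0.09 (SE), adjusted p = 0.0356). Ogdh, the first enzyme of the 2-oxoglutarate dehydrogenase complex, was at 341 to 456 CPM in susceptible against 462 to 662 CPM in resilient libraries (-0.59, adjusted p = 0.0754). Dlat separated the groups and Ogdh did so by a small margin. The mean of the list was -0.34, -0.23 and -0.03 in susceptible, -0.23, 0.10, 0.11 and 0.01 in resilient and -0.31, -0.18, 0.12 and 0.01 in non-defeated libraries, in the order of their numbers. Libraries numbered 1 to 4, with non-defeated 6, were the lowest in every group, and susceptible 10 lay at the resilient level. The median difference was -0.24 within numbers 1 to 6 and -0.13 within numbers 7 to 11, where susceptible 10 was the only susceptible library. Of 20 aminoacyl-tRNA synthetases tested 7 were lower and 0 higher, with Wars at -0.37 (adjusted p = 0.0801) and Gars at -0.35 (adjusted p = 0.121) and none called (DESeq2 on the 7 libraries called 1). The list followed the same libraries, at -0.35, -0.23 and -0.02 in susceptible and -0.34, -0.20, 0.13 and 0.05 in non-defeated ones. The median difference of the list was -0.27 within numbers 1 to 6 and -0.15 within numbers 7 to 11, again with susceptible 10 alone. Translation initiation and elongation factors were mixed, with 11 higher and 6 lower of 66 and a median of 0.02. Eif2s2, the beta subunit of the factor that delivers initiator tRNA, was called at 105 to 132 CPM in susceptible against 78.9 to 87.2 CPM in resilient libraries (0.47 ± 0.11 (SE), adjusted p = 0.0428). Eif5b had 0.40 (adjusted p = 0.0764) and Eif2d -0.39 (adjusted p = 0.0584).

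Protein turnover genes were mixed. Of 48 proteasome genes 12 were higher and 5 lower, with a median of 0.06. Psmg4, an assembly chaperone, had 0.47 (adjusted p = 0.0639), Psma4 of the core particle 0.25 (adjusted p = 0.0765), and Psmd3 of the regulatory particle -0.25 (adjusted p = 0.0909). Ubiquitin and ubiquitin-like conjugation genes counted 14 higher and 5 lower of 47. Sumo2, a small ubiquitin-like modifier, was the 1 called, at 324 to 342 CPM in susceptible against 248 to 284 CPM in resilient libraries (0.34 ± 0.07 (SE), adjusted p = 0.0411). Skp1a, a subunit of SCF ubiquitin ligases, had 0.20 (adjusted p = 0.0986). Cytosolic chaperones counted 6 higher and 5 lower of 38, among them Hsp90aa1 at 0.38 (adjusted p = 0.0957), Pfdn4 at 0.30 (adjusted p = 0.102) and Stip1 at -0.29 (adjusted p = 0.0940). Genes of the unfolded protein response gave 3 higher and 5 lower of 29, with Edem1 at -0.69 (adjusted p = 0.0727), Syvn1 at -0.35 (adjusted p = 0.116) and Ddit3 at 0.38 (adjusted p = 0.135). Antioxidant enzymes gave 3 higher and 2 lower of 30. Sod1, the cytosolic superoxide dismutase, rose from 184 to 213 CPM in resilient to 241 to 305 CPM in susceptible libraries (0.45 ± 0.11 (SE), adjusted p = 0.0481). Txn1 had 0.44 (adjusted p = 0.0595), and Txnrd1, which reduces thioredoxin, had -0.34 (adjusted p = 0.0909). Of 21 vacuolar proton pump subunits 3 were higher and 4 lower, with Atp6ap1 at -0.34 (adjusted p = 0.0699), Atp6v0a1 at -0.44 (adjusted p = 0.0805) and Atp6v1f at 0.28 (adjusted p = 0.172).

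In the lists of potassium, sodium and calcium channels only Kcnq3 was called, where 1.89% of all genes tested were called. Of 46 voltage-gated potassium channel genes 3 were higher and 6 lower. Of the 46, 30 had a negative log2 fold change, with a median of -0.14 (-0.20 to -0.06 with each TRAP library left out). Kcnq3 thus went against the median of its list. The medians of the other potassium, sodium and calcium channel lists were -0.02, 0.09 and 0.11. Kcng4, a modulatory subunit, was at 50.4 to 69.3 CPM in susceptible against 66.4 to 108 CPM in resilient libraries (-0.55, adjusted p = 0.103), and Kcna2, the axonal Kv1.2 subunit, had -0.44 (adjusted p = 0.181). Kcnc1, the Kv3.1 subunit that gives PV neurons their brief spikes, was at 417, 356 and 257 CPM in susceptible and 385, 287, 313 and 345 CPM in resilient libraries, so the resilient range lay within the susceptible range (0.05 ± 0.15 (SE), adjusted p = 0.894). Among 39 other potassium and HCN channels, 5 were higher and 2 lower. Kcnj10, the inward rectifier of astrocytes, had 0.78 (adjusted p = 0.0690) and Kcnmb4, a subunit of BK channels, 0.37 (adjusted p = 0.120). Of 16 sodium channel genes 2 were higher and 1 lower, with Scn2b at 0.49 (adjusted p = 0.119), Scn8a at 0.28 (adjusted p = 0.149) and Fgf14, which binds the channels at the axon initial segment, at -0.40 (adjusted p = 0.157). Of 24 calcium channel genes 2 were higher and 1 lower. Cacna1b, the N-type channel, was at 6.93 to 9.06 CPM in susceptible against 3.87 to 6.77 CPM in resilient libraries (0.66, adjusted p = 0.117). Cacna1a, the P/Q-type channel of PV terminals, had 0.26 (adjusted p = 0.235), and the auxiliary subunit Cacnb1 had -0.32 (adjusted p = 0.172).

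Downstream of calcium, 8 of 36 genes of calcium release, calmodulin and its kinases were higher and 3 lower, and Ppp3cb and Camk2g were called. Camk2g, a subunit of calmodulin kinase II, was at 71.3, 67.3 and 59.9 CPM in susceptible and 45.3, 48.7, 44.7 and 47.2 CPM in resilient libraries (0.51 ± 0.11 (SE), adjusted p = 0.0389). Camkk2, which activates other calmodulin kinases and AMPK, had -0.25 (adjusted p = 0.0993). The median of the list was 0.10, and -0.01 without susceptible 10. In cyclic AMP signaling 2 genes were higher and 7 lower of 37. Adcy9, an adenylyl cyclase, was called at 13.4, 12.2 and 12.3 CPM in susceptible and 6.04, 7.57, 8.67 and 8.40 CPM in resilient libraries (0.72 ± 0.15 (SE), adjusted p = 0.0389). The kinase subunits were not called: Prkaca, the catalytic subunit, had -0.26 (adjusted p = 0.0595) and Prkar1b, a regulatory subunit, -0.26 (adjusted p = 0.0689).

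Synaptic genes changed singly and in both directions. In the vesicle release machinery 4 were higher and 7 lower of 46, with a median of -0.12. Cplx2, a complexin that clamps and promotes SNARE-driven fusion, was at 147, 109.8 and 120.2 CPM in susceptible and 72.6, 94.8, 72.7 and 85.0 CPM in resilient libraries (0.63 ± 0.13 (SE), adjusted p = 0.0395). In non-defeated mice Cplx2 was lower in TRAP than in input (log2 -1.62). Syn1, a synapsin that tethers vesicles, had -0.51 (adjusted p = 0.0781), with susceptible 10 above resilient 3. In GABA synthesis, transport and reception 3 genes were higher and 3 lower of 34. Gabrb2, a subunit of the common GABA-A receptor, was called at 28.3 to 39.8 CPM in susceptible against 44.6 to 60.3 CPM in resilient libraries (-0.59 ± 0.14 (SE), adjusted p = 0.0468). Nlgn2, the adhesion molecule of inhibitory synapses, had 0.75 (adjusted p = 0.0691) and Kctd12, an auxiliary GABA-B subunit, 0.47 (adjusted p = 0.0872). Of 39 ionotropic glutamate receptors and partners 6 were higher and 4 lower. Grin2b, the GluN2B subunit of NMDA receptors, was at 109, 92.4 and 98.7 CPM in susceptible and 51.2, 84.2, 58.1 and 66.2 CPM in resilient libraries (0.63 ± 0.14 (SE), adjusted p = 0.0416), and Grid1, the GluD1 subunit, was at 3.11 to 4.62 CPM in susceptible against 1.72 to 2.89 CPM in resilient libraries (0.83 ± 0.19 (SE), adjusted p = 0.0443). Both were higher in all 3 susceptible libraries, while the kainate receptor subunit Grik2 had -0.61 (adjusted p = 0.0686). None of 49 G protein-coupled transmitter receptors reached an unadjusted p under 0.05 in edgeR's test, and DESeq2 called 0.

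At the cell surface, synaptic adhesion molecules counted 9 higher and 1 lower of 46. Nectin1 was called at 4.64 to 7.01 CPM in susceptible against 2.505 to 3.66 CPM in resilient libraries (0.80 ± 0.17 (SE), adjusted p = 0.0393), and Ptprs, a receptor phosphatase, had -0.41 (adjusted p = 0.155). Clustered protocadherins, which give neurons their surface identity, counted 0 higher and 2 lower of 23. Pcdhb2 and Pcdhb15, both under 1 CPM, had -1.71 (adjusted p = 0.0532) and -1.62 (adjusted p = 0.164). Perineuronal net components counted 1 higher and 3 lower of 20. Chst11, which sulfates chondroitin, was called at 12.5, 10.8 and 5.26 CPM in susceptible and 3.20, 4.02, 4.29 and 5.31 CPM in resilient libraries (1.18 ± 0.26 (SE), adjusted p = 0.0424), although susceptible 10 lay below resilient 8. Hapln4, a link protein of the nets, had -0.43 (adjusted p = 0.109) and the lectican Bcan -0.48 (adjusted p = 0.216). In the cytoskeleton, kinesin and dynein motors counted 14 higher and 7 lower of 61, with Dynll1, a dynein light chain, at 377 to 422 CPM in susceptible against 288 to 320.1 CPM in resilient libraries (0.39, adjusted p = 0.0541), Kif28 at 1.37 (adjusted p = 0.118) and Klc2, a kinesin light chain, at -0.35 (adjusted p = 0.0589). Tubulins and microtubule-associated proteins had a median of -0.14, with 3 higher and 4 lower of 38, among them Map4 at -0.31 (adjusted p = 0.0546), Dclk2 at -0.40 (adjusted p = 0.0618) and Map9 at 0.29 (adjusted p = 0.0701). Of 20 genes of the spectrin and ankyrin scaffold 1 was higher and 4 were lower, with Epb41l3 at -0.52 (adjusted p = 0.0586), Sptbn4, the spectrin of the axon initial segment, at -0.54 (adjusted p = 0.0792) and Sptb at 0.39 (adjusted p = 0.211).

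The Wnt list held 3 called genes, all lower in susceptible mice. Of 50 Wnt pathway genes 2 were higher and 9 lower at an unadjusted p under 0.05. Dvl3, Axin1 and Dvl1 were called, all cytoplasmic proteins of the pathway. Axin1, the scaffold of the β-catenin destruction complex, was at 20.7, 18.2 and 19.7 CPM in susceptible 2, 4 and 10 and 28.8, 29.1, 25.9 and 27.4 CPM in resilient 3, 5, 7 and 8 (-0.51 ± 0.08 (SE), adjusted p = 0.0227). Dvl1, named after its value was seen, had -0.35 (adjusted p = 0.0468), and Celsr2, a planar polarity cadherin, 0.30 (adjusted p = 0.231). Ligands and receptors gave no call. The median of the list was -0.16, and 0.04 without resilient 7, the library with the high thalamic markers, which include the Wnt effectors Tcf7l2 and Lef1. For Dvl3 and Axin1 resilient 7 lay within the range of the other resilient libraries or below it. The part of thalamic RNA in the differences of the Wnt list was not tested. In mTOR and AMPK signaling 2 genes were higher and 7 lower of 31, and Pik3r2, Rps6ka1 and Ulk2, the last named after its value was seen, were called on the lower side. Pik3r2, a regulatory subunit of PI3 kinase, was at 127 to 133 CPM in susceptible against 159 to 170.2 CPM in resilient libraries (-0.36 ± 0.07 (SE), adjusted p = 0.0378), and Rps6ka1, the kinase RSK1, at 16.2 to 23.0 CPM in susceptible against 26.2 to 34.2 CPM in resilient libraries (-0.63 ± 0.14 (SE), adjusted p = 0.0416). Stk11, the kinase LKB1 that activates AMPK, had 0.54 (adjusted p = 0.111). In neurotrophin and neuregulin signaling 1 was higher and 3 were lower of 20. Shc3, a neuronal adaptor of Trk receptors, was called at 11.9 to 13.2 CPM in susceptible against 18.8 to 26.3 CPM in resilient libraries (-0.74 ± 0.18 (SE), adjusted p = 0.0499), Shc2 had -0.32 (adjusted p = 0.114) and the receptor Ntrk3 0.39 (adjusted p = 0.0937). Bdnf and its receptor Ntrk2 had 0.36 (adjusted p = 0.258) and -0.08 (adjusted p = 0.599).

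Clock genes had the lowest median of the functional lists, at -0.27 (-0.34 to -0.10 with each TRAP library left out). Of 18 members 5 were lower and 2 higher. Tef, a PAR-domain transcription factor under clock control, was called at 138, 162 and 144 CPM in susceptible and 185, 198, 206 and 206 CPM in resilient libraries (-0.42 ± 0.08 (SE), adjusted p = 0.0367). Nr1d2 (REV-ERBβ), a repressor of the clock, was at 75.7, 99.1 and 87.1 CPM against 129, 109, 162 and 147 CPM (-0.65, adjusted p = 0.0530), without overlap. Bhlhe41 (DEC2) was on the other side at 0.33 (adjusted p = 0.115). The mean level of the list was -0.33, -0.21 and -0.05 in susceptible, -0.25, -0.02, 0.35 and -0.08 in resilient and -0.15, -0.15, 0.26 and 0.14 in non-defeated libraries, highest in resilient 7, and the time of day at dissection of each library is not given in the sources used here.

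Of the activity and stress hormone genes none was called by edgeR, where 1.89% of all genes tested were called. DESeq2 on the 7 libraries called 0 immediate early genes and 3 of the corticosteroid list. Fos was at 29.0, 33.4 and 25.9 CPM in susceptible and 26.0, 33.8, 42.7 and 31.4 CPM in resilient libraries (-0.19 ± 0.16 (SE), adjusted p = 0.545). Npas4, an activity-induced transcription factor, was at 0.0962, 0.244 and 0.940 CPM and 0.0385, 1.36, 0.655 and 0.706 CPM, so that each group held libraries near 0. Of 31 immediate early genes 1 was higher and 3 were lower, with Egr3 at -0.64 (adjusted p = 0.117), Nr4a3 at 0.60 (adjusted p = 0.137) and Dusp1 at -0.29 (adjusted p = 0.225). Among 21 corticosteroid receptors and glucocorticoid targets 5 were higher and 1 lower. The glucocorticoid receptor Nr3c1 and its targets Fkbp5 and Sgk1 had 0.08 (adjusted p = 0.844), -0.21 (adjusted p = 0.554) and -0.13 (adjusted p = 0.686). Cdkn1a, Mt1 and Fkbp4 had 0.58 (adjusted p = 0.0665), 0.65 (adjusted p = 0.106) and -0.28 (adjusted p = 0.128), and the median of the list, 0.10, was -0.04 without susceptible 10. No gene of PV identity named here was called: Gad1 had -0.30 ± 0.15 (SE), adjusted p = 0.260, Gad2 -0.05 ± 0.13 (SE), adjusted p = 0.865, Slc32a1 0.0029 ± 0.18 (SE), adjusted p = 0.994, Erbb4 0.13 ± 0.22 (SE), adjusted p = 0.795 and Pvalb 0.17 ± 0.13 (SE), adjusted p = 0.507. These errors leave room for modest differences in either direction. Of 23 interneuron lineage transcription factors 1 was higher, Nr2f1 at 0.34 (adjusted p = 0.118), and 0 were lower. Of 23 neuropeptide genes with Nos1 1 was higher, Cck at 107 to 126 CPM in susceptible against 80.8 to 103 CPM in resilient libraries (0.31, adjusted p = 0.112), and 0 lower.

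**Figure D3:**
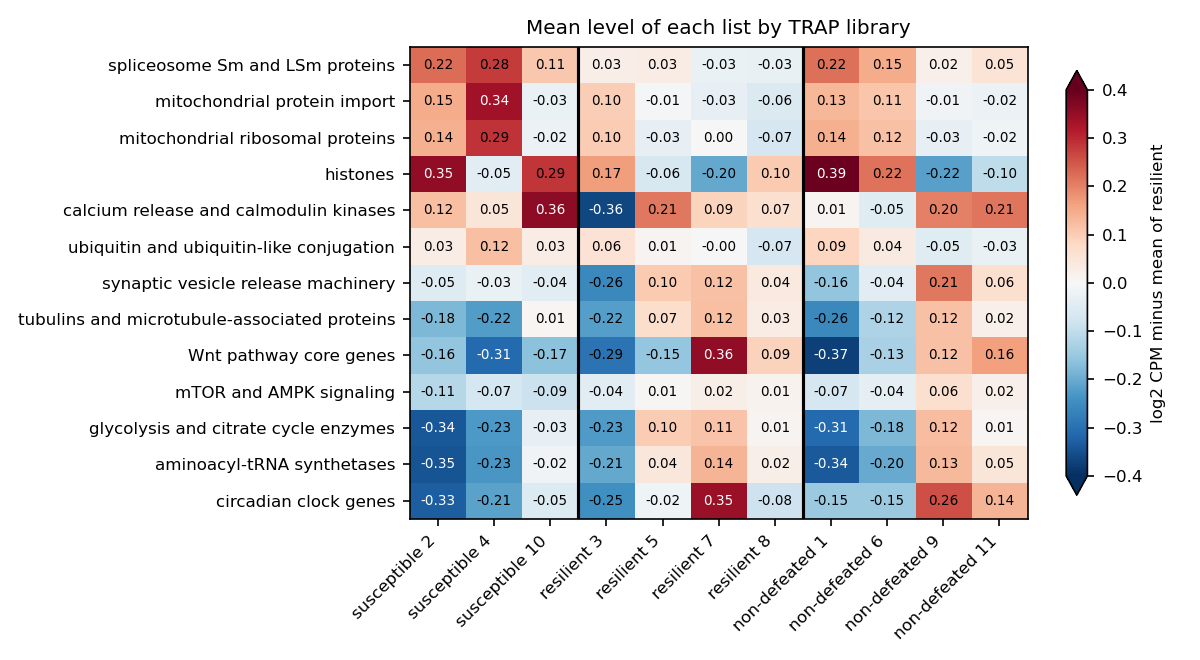
Mean level of 13 functional lists in each of the 11 TRAP libraries, as log2 CPM minus the mean of the 4 resilient libraries, with black lines between groups. Glycolysis and citrate cycle enzymes are low in susceptible 2 and 4 (-0.34 and -0.23), resilient 3 (-0.23) and non-defeated 1 and 6 (-0.31 and -0.18), and susceptible 10 (-0.03) resembles the resilient libraries.

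Most called genes also separated non-defeated 1 and 6 from non-defeated 9 and 11. Outside oxidative phosphorylation and the ribosome, 185 genes were called higher in susceptible mice. Of these, 124 (67.0%) were higher in both non-defeated 1 and 6 than in 9 and 11, and 3 lower. Of the 186 called lower, 138 (74.2%) were lower in non-defeated 1 and 6 and 3 higher. Over all 20924 genes tested outside those lists, 27.2% were higher and 29.9% lower in non-defeated 1 and 6. The cause was not tested. With the number as a covariate in the 11 TRAP libraries, 1109 genes were called, and with a term for numbers above 6, 282. All 45 called genes named by rule kept their direction in both fits, and 29 of them were called in the latter. In the 11 TRAP libraries without a covariate, 0 of the 45 were called. These fits reuse the libraries in which the genes were chosen, so a kept direction is no separate support.

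Of the 12 cell type lists, only that of blood held called genes. The 8 blood cell markers summed to 892, 917 and 1239.6 CPM in susceptible 2, 4 and 10 and 239, 599, 129 and 159.6 CPM in resilient 3, 5, 7 and 8, against 116 to 243 CPM in non-defeated TRAP and 780.1 to 988 CPM in input. All 6 tested had a positive log2 fold change, and 4 were higher at an unadjusted p under 0.05. The 4 called were the globin genes described above. Thalamic markers summed to 212, 237 and 375 CPM in susceptible and 193, 238, 1157 and 228 CPM in resilient libraries, with 225, 199.6, 689.9 and 533 CPM in the non-defeated ones. Slc17a6, the vesicular glutamate transporter of thalamic neurons, was at 40.8 CPM in resilient 7 and at most 5.24 CPM in the other resilient libraries. The median of the thalamic list was -1.01, and 0.64 without resilient 7, and Calb2 had -0.41 (adjusted p = 0.401). Choroid plexus and ependymal markers summed to 709, 692 and 1348 CPM in susceptible and 382, 838, 876 and 859 CPM in resilient libraries, with Ttr at 0.57 (adjusted p = 0.233) and Tmem212 at 0.79 (adjusted p = 0.242).

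Of the neuronal lists, 0 of 19 PV interneuron markers were higher and 2 lower at an unadjusted p under 0.05, with Btbd11 at -0.57 (adjusted p = 0.101). By library the PV list was at 0.10, 0.18 and -0.45 in susceptible and 0.28, -0.09, -0.28 and 0.09 in resilient libraries relative to the resilient mean, lowest in susceptible 10. Of the others, 2 of 13 markers of SST and other interneurons were higher and 0 lower at an unadjusted p under 0.05, with Cck at 0.31 (adjusted p = 0.112) and Reln at 0.51 (adjusted p = 0.183), and 2 of 19 excitatory neuron markers were higher and 0 lower at an unadjusted p under 0.05, with Spink8 at 0.68 (adjusted p = 0.0803) and Ociad2 at 0.27 (adjusted p = 0.238). Their sums were 569 to 931 CPM in susceptible, 502 to 844 CPM in resilient and 452 to 486 CPM in input libraries for the former and 1282 to 1788 CPM in susceptible, 1082 to 1828 CPM in resilient and 3668 to 4317 CPM in input libraries for the latter. Among glia, 2 of 15 astrocyte markers were higher and 1 lower at an unadjusted p under 0.05, with Fgfr3 at -0.86 (adjusted p = 0.0689) and S100b at 0.53 (adjusted p = 0.136). Neither was called, and the list summed to 1304 to 2242 CPM in susceptible, 1271 to 2035 CPM in resilient and 2366 to 2541 CPM in input libraries. For oligodendrocytes, 2 of 15 oligodendrocyte markers were higher and 0 lower at an unadjusted p under 0.05, with Mal at 0.44 (adjusted p = 0.192) and Cldn11 at 0.57 (adjusted p = 0.231), and the sum was 979 to 1597 CPM in susceptible, 579.7 to 1742 CPM in resilient and 3353 to 3772 CPM in input libraries. Neither Cspg4 (-0.49, adjusted p = 0.392) nor Pdgfra (0.43, adjusted p = 0.511) of the precursor list, of which 0 were higher and 0 lower, was called. The 16 microglial markers had a median of 0.38 at a summed 47.99 to 66.3 CPM in susceptible, 43.3 to 61.8 CPM in resilient and 127 to 148 CPM in input libraries, with 1 higher and 0 lower, Tyrobp at 1.15 (adjusted p = 0.0982) and C1qc at 0.63 (adjusted p = 0.242). In the vessel wall, 2 of 18 endothelial markers were higher and 0 lower at an unadjusted p under 0.05, with Pglyrp1 at 0.61 (adjusted p = 0.208) and Ly6a at 0.74 (adjusted p = 0.210), and 3 of 14 markers of mural cells and fibroblasts were higher and 0 lower at an unadjusted p under 0.05, with Rgs5 at 0.45 (adjusted p = 0.139) and Myh11 at 1.32 (adjusted p = 0.197). Endothelial markers summed to 464 to 545 CPM in susceptible, 386 to 528 CPM in resilient and 216 to 235 CPM in input libraries, and mural markers to 70.1 to 114 CPM in susceptible, 68.0 to 109.7 CPM in resilient and 73.2 to 80.1 CPM in input libraries. The part of these cells in the differences above was not tested, except that a covariate for other cell markers relative to Pvalb in the TRAP libraries gave 1777 calls.

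**Figure D4:**
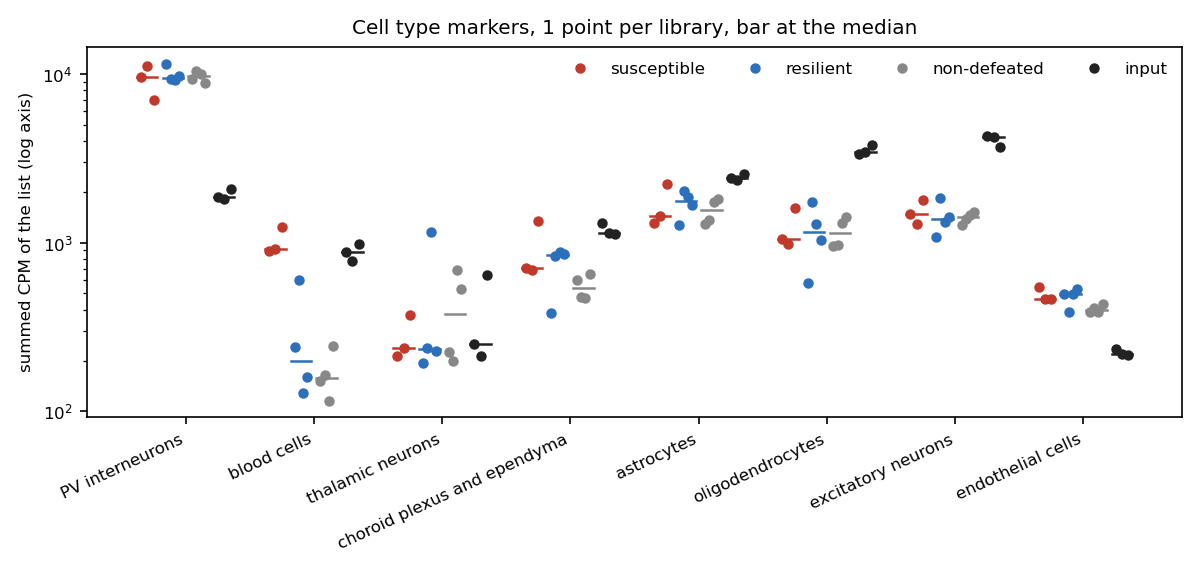
Summed CPM of 8 cell type marker lists on a log axis, with 1 point per library and a bar at the median of each group. Blood markers of the 3 susceptible libraries (892 to 1239.6 CPM) lie at the level of input and above all resilient libraries (at most 599 CPM), and 1 resilient library is high in thalamic markers.

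The called genes were also described by enrichment over input, GC content and length. Enrichment was the difference of non-defeated TRAP from input. Its fold change compares other libraries than the 7, but its test came from the same fit of 14 libraries and shares their estimate of spread, so genes of low spread are more readily called in both. Of the 185 genes called higher in susceptible mice 60.0% were above input and 13.5% below, and of the 186 called lower 19.4% were above and 43.5% below, against 26.6% and 28.1% of all genes outside both excluded lists (over all genes tested, 27.4% were above and 27.6% below). The median log2 fold change between susceptible and resilient libraries was 0.16 in the decile of genes most enriched over input and -0.08 in the third decile from the bottom. GC content of the exons had a median of 46.0% in genes called higher, 53.8% in genes called lower and 50.2% in all. By exon length the median log2 fold change went from 0.12 in the shortest decile (up to 648 bases) to -0.09 in the seventh (4255 to 5256 bases) and was 0.00304 in the longest. With an offset for GC content 106 genes were called, and with an offset for length 499. The functional lists differ in length too: the median exon length was 2857 bases for the spliceosome list and 3959 for glycolysis and the citrate cycle, whose medians with the length offset were 0.26 and -0.16.

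**Figure D5:**
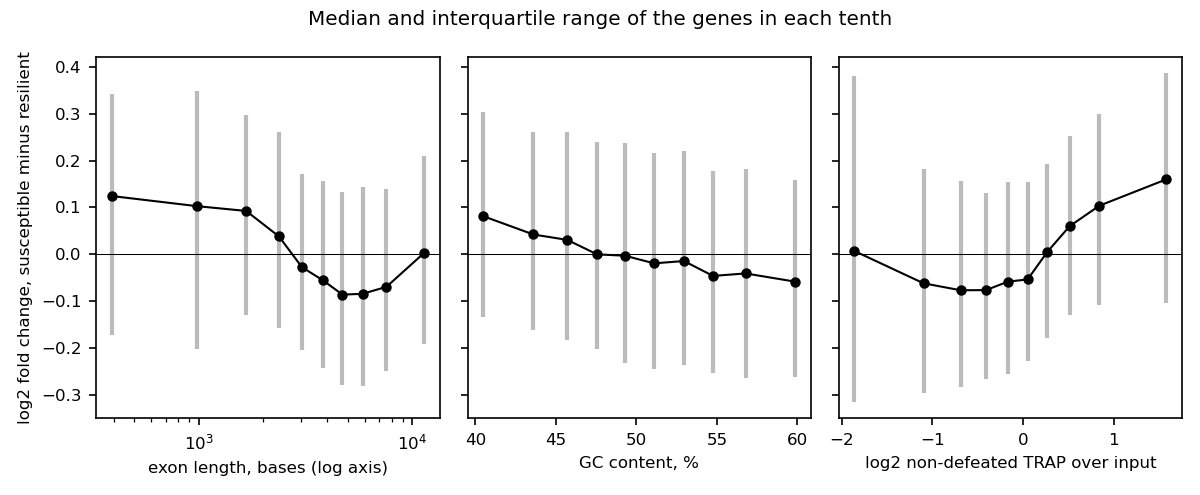
Log2 fold change, susceptible minus resilient, of genes outside oxidative phosphorylation and the ribosome, in deciles by exon length (log axis), GC content of the exons and enrichment of non-defeated TRAP over input; points are medians and bars interquartile ranges. The median goes from 0.08 to -0.06 from the lowest to the highest GC decile, within the interquartile range of genes in each decile.

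Of all 403 called genes, 156 of those higher and 132 of those lower in susceptible mice were protein-coding. Processed pseudogenes made up 29 of the 217 higher and 13 of the 186 lower genes, and antisense genes 4 and 19. Of the 21298 genes tested, 15883 were protein-coding, 2152 were processed pseudogenes and 989 were antisense genes. Reads of a pseudogene and its parent gene can be exchanged, so these were not described further.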

How the data were processed

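TRAP libraries of susceptible, resilient and non-defeated mice and input libraries of total hippocampal RNA were analysed from 1 table of raw read counts per gene that the authors deposited. Per the study's methods, 1 ng of RNA was amplified with SMART-Seq v4, tagmented with Nextera XT and sequenced as single reads on an Illumina NextSeq, and reads were trimmed with fastp and aligned with STAR to mm10. The submitters' processing notes name HTSeq for counting and STAR 2.5.3a, and the methods name another STAR version. The annotation release and the strand setting are not given in the sources used here.

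Genes with enough counts by edgeR's filterByExpr (21298 of 39017) were normalized by TMM and fitted over all 14 libraries with edgeR 4.0.16 in R 4.3.3 (quasi-likelihood test, a mean per group, Benjamini-Hochberg adjustment over all genes tested). The contrast was susceptible minus resilient. Standard errors are the absolute log2 fold change over the square root of F. DESeq2 1.42.0 and limma 3.58.1 (voom) were alternatives. The scripts were tested on simulated counts. Symbols, coordinates, exon length and GC content came from an mm10 (GRCm38) annotation, with length and GC for 98.0% of genes tested.

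Named genes were, outside oxidative phosphorylation and ribosomal proteins, the 6 protein-coding genes with the smallest p in each direction among called genes without overlap, the 4 with the largest fold change in each direction at a mean of at least 1 CPM, in each functional list the 2 genes with the smallest p in the direction with more members at an unadjusted p under 0.05 and the 1 with the smallest p in the other direction where that p was under 0.05, the 2 with the smallest p in each cell type list, and a fixed set of PV, activity and stress genes. Other names are stated to have been chosen after their values were seen. Some genes that the rule named are not reported here. The members, lists and settings were chosen with earlier results of these data known.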

Additional observations from a re-analysis of the deposited data

Results flagged for a closer look

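For groups of 4 libraries, the gap between the highest or lowest library and its nearest neighbour was set against the range of the group. In 17 of 296 such groups, over the named genes, marker sums and list levels, 1 library stood apart, and chance gives about 1 in 20. The susceptible group has 3 libraries and was not tested.

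Resilient 7 stood apart for the thalamic marker sum (gap over range 0.953), with 1157 CPM, and for Slc17a6 (0.970), with 40.8 CPM. It was also the highest for Stip1 (0.838) and the lowest for Ntrk3 (0.871). Resilient 3 was the lowest for the choroid plexus and ependymal marker sum (0.923), Ttr (0.918), and the mean levels of hnRNP and SR splicing factors (0.863) and perineuronal net components (0.862). It was the highest for the sum of SST and other interneuron markers (0.884), Scn2b (0.836) and Atp6v1f (0.854). Resilient 5 was the highest for Hbb-bt (0.840) and the lowest for Ppargc1a (0.849), and resilient 8 the highest for Shc3 (0.843).

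Among non-defeated libraries, number 6 was the highest for Kcnq3 (0.834), number 11 the highest for Grb7 (0.893) and number 9 the lowest for Pvalb (0.854), at 1265 CPM. The cause of these values was not tested.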

How the results depend on the processing

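The number of called genes depended on the processing. The fit of all 14 libraries called 403 genes (217 higher, 186 lower, 39 over 2-fold). The count was 991 (495 higher, 496 lower, 45 over 2-fold) with DESeq2 on the 7 libraries, 1099 (567 higher, 532 lower, 146 over 2-fold) with edgeR's likelihood ratio test, 126 (58 higher, 68 lower, 18 over 2-fold) without a filter on low counts, 106 (51 higher, 55 lower, 15 over 2-fold) with a GC offset, 1 (0 higher, 1 lower, 1 over 2-fold) in the TRAP libraries alone and 0 (0 higher, 0 lower, 0 over 2-fold) in the 7 libraries alone (edgeR, 3348 genes at an unadjusted p under 0.05). Covariates in the TRAP libraries gave 1777 (923 higher, 854 lower, 79 over 2-fold) for other cell RNA, 1109 (567 higher, 542 lower, 49 over 2-fold) for the number and 282 (132 higher, 150 lower, 19 over 2-fold) for numbers above 6. Without susceptible 10 and resilient 7 it was 5 (3 higher, 2 lower, 2 over 2-fold). This setting and the split of the numbers were chosen after seeing the data. Leaving out each TRAP library in turn gave 6 to 1058 called genes, 2 to 652 higher, 4 to 406 lower and 1 to 113 over 2-fold, while 3192 to 5214 had an unadjusted p under 0.05. RLE size factors, limma-voom, a minimum of 10 counts and a length offset kept the counts within 1.5 times. The cause of these shifts was not tested, other than that fits of fewer libraries have fewer samples. Of the 158 named genes, the 45 that were called kept their direction under the 25 settings. Of these 45, 0 were called in the TRAP libraries alone, 0 in the 7 libraries alone and 1 without susceptible 10 and resilient 7. Depth limits genes such as Npas4, at 0.0385 CPM in resilient 3. No paired analysis was possible because the groups share no replicate number.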

Other observations

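Lars2, chosen after its value was seen, had a high level among the called genes that no rule named. It encodes the mitochondrial leucyl-tRNA synthetase, and was at 6296, 3902 and 6012 CPM in susceptible 2, 4 and 10 and 2794, 3526, 3267 and 3969 CPM in resilient 3, 5, 7 and 8 (log2 fold change 0.67 ± 0.16 (SE), adjusted p = 0.0468, edgeR). Susceptible 4 lay below resilient 8. The non-defeated libraries held 5239.5, 4955, 4062 and 3838 CPM in 1, 6, 9 and 11. The list of aminoacyl-tRNA synthetases had a median on the lower side (-0.22). Its member Wars was at 134 to 161 CPM in susceptible and 173 to 202 CPM in resilient libraries, far below Lars2. Whether all reads counted on Lars2 come from its mRNA was not tested, so its change cannot be set against that list.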
